A study of Mus musculus with 12 samples.

Results

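Interscapular brown adipose tissue (BAT) was compared with retroperitoneal white adipose tissue (RWAT), the fat pad behind the kidneys, across all genes. The comparison holds 3 BAT and 3 RWAT libraries of 12 in the study, chosen by their depot labels and not by any measured value. Both groups came from male wild-type C57BL/6J mice aged 6 to 10 weeks on a low-fat rodent diet, and in both the fat had been denervated by surgery. No innervated fat was analysed here, so neither an effect of denervation nor a normal difference between these depots can be read from the values. The other 6 libraries are epididymal (EWAT) and inguinal (IWAT) white fat of the same kind of mice, 3 each. Nothing in the labels ties each library to an animal of its own, so the p-values measure only the spread between these libraries, which may be technical.

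Brown adipocytes burn fatty acids in dense mitochondria, where uncoupling protein 1 lets protons leak back across the inner membrane and the energy leaves as heat. White adipocytes store triglyceride in a single large droplet and release it under hormonal and nervous control. Interscapular brown fat develops from somites in the upper trunk, next to skeletal muscle of the back. Retroperitoneal fat lies in the lower trunk under the peritoneum, whose surface is a sheet of mesothelial cells.

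Ribosomal RNA had been depleted from total RNA and single-end reads of 75 bases were sequenced. The deposited files give estimated counts per gene, which totalled 17599960 to 21057834 in BAT libraries and 15699912 to 18227111 in RWAT libraries. Ucp1 was detected in every BAT library and Adipoq, the adiponectin gene of fat cells, in all 6 libraries. Levels are given as CPM, in the order of replicates 1, 2 and 3. These are counts scaled by the library total times a factor from the trimmed mean of M-values (TMM). The scaled libraries do not share a common total. All genes summed to 1627460, 1151420 and 1030170 CPM in BAT libraries and 1052420, 821017 and 853670 CPM in RWAT libraries. Summed CPM of a gene list are therefore not shares of a common total. Fold changes are log2 of BAT over RWAT from edgeR's quasi-likelihood test in a fit of all 12 libraries. Genes count as called where edgeR's p, adjusted by Benjamini-Hochberg across every gene in the fit, was below 0.05. The lists, the called genes and the genes whose fold change depended on RWAT replicate 3 are given also without that replicate. The lists were drawn up with earlier results of these data known, so their counts beside the background shares are descriptive only.

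Several libraries stood apart from their group. The 23 skeletal muscle markers, which encode the contractile and calcium-handling proteins of muscle fibres, summed to 25288, 17735 and 3006 CPM in BAT libraries, against 124, 199 and 20389 CPM in RWAT libraries. RWAT replicate 3 therefore lay within the range of the BAT libraries, while RWAT replicates 1 and 2 lay near the 91.1 to 154 CPM of EWAT and IWAT. The 15 genes of de novo lipogenesis, which turn glucose carbon into fatty acids, summed to 152643, 93824 and 28614 CPM in BAT libraries and 89682, 4424 and 3495 CPM in RWAT libraries. The 18 macrophage markers ran the other way, with 1336, 1774 and 6909 CPM in BAT libraries and 2399, 6669 and 6163 CPM in RWAT libraries. RWAT replicate 1 thus sat close to BAT replicates 1 and 2 in adipocyte genes, and BAT replicate 3 sat close to RWAT replicates 2 and 3 in macrophage genes. The first principal component of the 6 libraries, which held 61.4% of their variance, ran from BAT replicate 1 (−110) over BAT replicate 2 (−65.2), RWAT replicate 1 (−17.8) and BAT replicate 3 (21.1) to RWAT replicates 3 (73.4) and 2 (98.7). How far these differences between libraries of 1 depot enter the values below was not tested.

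**Figure D1:**
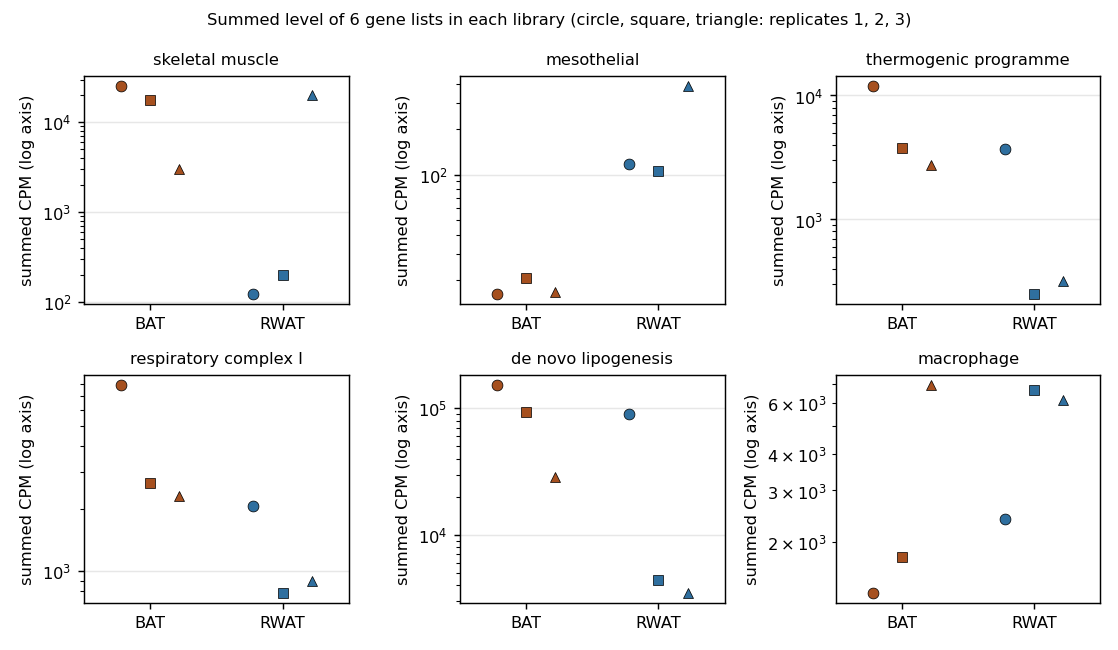
Summed CPM (log axis) of 6 gene lists in each BAT library (left, brown) and each RWAT library (right, blue), with circle, square and triangle for replicates 1, 2 and 3. The mesothelial sums of the 2 depots do not overlap, RWAT replicate 3 lies among the BAT libraries for muscle markers, and RWAT replicate 1 lies far above the other two RWAT libraries for lipogenesis.

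Between BAT and RWAT the called genes were few, several of them were developmental regulators, and none was a gene of heat production. Of 19154 genes tested, 11 were called (0.0574%), 6 of them higher (0.0313%) and 5 lower (0.0261%) in BAT. The higher genes were the LIM homeobox gene Lhx8, its neighbour AI606473, the major urinary protein gene Mup1 and 3 genes of the ribosomal protein S16 family. The lower genes were Wt1 and Bnc1, transcription factor genes of mesothelium, Hoxc10, a posterior Hox gene, the basement membrane collagen gene Col4a6, and Slc39a8, which encodes a zinc and manganese transporter. The median log2 fold change of all genes tested was −0.07, and 2844 genes (14.8%) had an unadjusted p under 0.05.

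The calls were sensitive to single libraries and to the tool. The count was 2 without BAT replicate 1, 1 without BAT replicate 2, 0 without BAT replicate 3, 1 without RWAT replicate 1 and 3 without RWAT replicate 2. Without RWAT replicate 3 the count was 45 of 20594 genes tested (0.219%), 38 higher (0.185%) and 7 lower (0.034%), 1876 genes (9.11%) had an unadjusted p under 0.05, and 9 genes were called both with and without it. DESeq2, whose test makes other assumptions on the spread, called 333 genes (1.74%), 209 higher (1.09%) and 124 lower (0.647%), among them all 11. Without RWAT replicate 3 DESeq2 called 383 genes (1.86%), 316 of them higher (1.53%). All 3 BAT libraries lay above all 3 RWAT libraries for 7.42% of the genes tested and below them for 9.33%. Above RWAT replicates 1 and 2 alone they lay for 10.9%, and below both for 12.3%. Of the 93 genes described here by name and tested in both fits, the fold change moved by at most 1.5 times in 57 and by more in 36 when RWAT replicate 3 was left out. Hoxa7, with log2 fold changes of 0.01 with it and −0.07 without it, changed sign.

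**Figure D2:**
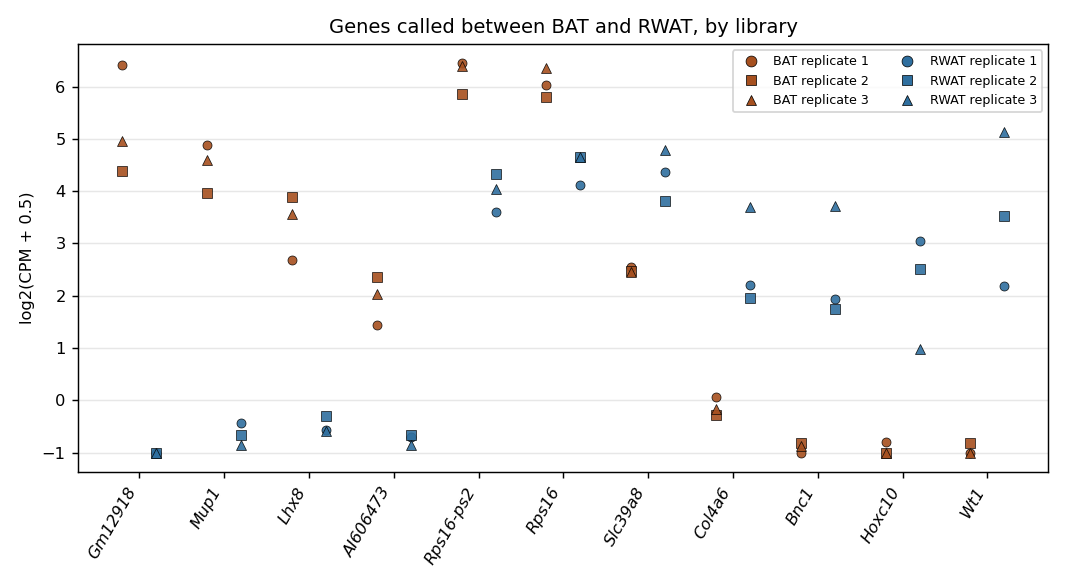
Level of the 11 called genes as log2(CPM + 0.5), in BAT libraries (brown, left of each gene) and RWAT libraries (blue, right), with a symbol per replicate. For each of the 11 genes the libraries of the 2 depots do not overlap, and the 3 RWAT libraries of Gm12918 all lie at 0 counts.

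Lhx8 (ENSMUSG00000096225, chromosome 3, 154306294 to 154330659 on GRCm38) encodes a LIM homeodomain transcription factor that is used as a marker of brown preadipocytes. It held 5.90, 14.3 and 11.3 CPM in BAT libraries, against 0.179, 0.315 and 0.163 CPM in RWAT libraries. All 3 BAT libraries lay far above all 3 RWAT libraries, and the log2 fold change was 5.52 (SE 0.59, edgeR adjusted p = 0.0206). With RWAT replicate 3 left out it was 5.35 (edgeR adjusted p = 0.0255). IWAT libraries held 2.19, 4.15 and 3.71 CPM of Lhx8 and EWAT libraries at most 0.0856 CPM, so RWAT lay with EWAT at this gene. AI606473, annotated as a noncoding processed transcript, is read from the opposite strand on the other side of Lhx8's start. It held 2.20, 4.64 and 3.57 CPM in BAT libraries and 0.119, 0.135 and 0.0544 CPM in RWAT libraries. The log2 fold change of AI606473 was 4.98 (SE 0.69, edgeR adjusted p = 0.0415), and without RWAT replicate 3 it was 4.69 (edgeR adjusted p = 0.0819). The 2 genes were ordered alike in BAT, with replicate 2 highest and replicate 1 lowest for each.

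Only 161 bases separate the annotated starts of Lhx8 and AI606473 on chromosome 3 (GENCODE M21). That stretch is shown because both genes of the pair were called in the same direction and it lies upstream of each. It reads on the plus strand, towards AI606473, from RefSeq's GRCm38.p6 sequence:
Lhx8 to AI606473, chr3:154330660-154330820: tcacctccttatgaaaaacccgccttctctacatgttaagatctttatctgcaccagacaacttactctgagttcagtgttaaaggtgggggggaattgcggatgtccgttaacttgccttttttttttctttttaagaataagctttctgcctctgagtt
It has a GC content of 40.4% and holds none of the 3 short motifs searched for on both strands, which were TATATA, the E-box motif CANNTG and the CArG box.

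Mup1 belongs to the major urinary proteins, lipocalins that carry pheromones and are best known from liver. It held 29.0, 15.0 and 23.8 CPM in BAT libraries, against 0.238, 0.135 and 0.0544 CPM in RWAT libraries. The log2 fold change was 7.26 (SE 1.02, edgeR adjusted p = 0.0415), and without RWAT replicate 3 it was 6.90 (edgeR adjusted p = 0.0719). IWAT libraries held 33.2, 106 and 8.46 CPM of Mup1, a range that takes in the BAT libraries, and EWAT libraries at most 0.214 CPM. The Mup genes are near-identical copies, and the deposited posterior SD of Mup1 averaged 9.39% of its count, so the split of reads between copies is uncertain.

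Rps16, which encodes a protein of the small ribosomal subunit, held 64.6, 55.5 and 81.6 CPM in BAT libraries and 16.97, 24.8 and 24.7 CPM in RWAT libraries. Its log2 fold change was 1.60 (SE 0.22, edgeR adjusted p = 0.0415), and without RWAT replicate 3 it was 1.68 (edgeR adjusted p = 0.0423). The processed pseudogene Rps16-ps2 held 86.4, 57.3 and 83.9 CPM in BAT libraries and 11.6, 19.6 and 16.04 CPM in RWAT libraries. Its log2 fold change was 2.27 (SE 0.23, edgeR adjusted p = 0.0206), and 2.28 without RWAT replicate 3 (edgeR adjusted p = 0.0255). A second processed pseudogene, Gm12918, held 84.5, 20.4 and 30.7 CPM in BAT libraries and had no count in any RWAT library. Set against 3 counts over the RWAT libraries, it was at least 795-fold higher in BAT (edgeR adjusted p = 0.0415), and at least 541-fold higher without RWAT replicate 3 (edgeR adjusted p = 0.0284). These 3 genes divided the 4 depots in another way than the others did. EWAT libraries held 77.0 to 94.5 CPM of Rps16 and 51.4 to 71.7 CPM of Gm12918, like BAT, while IWAT libraries held 14.5 to 20.7 CPM of Rps16 and no count of Gm12918, like RWAT. Rps16 and its pseudogenes share sequence, and the posterior SD averaged 2.86% of the count for Rps16 and 18.6% for Gm12918. The levels of the single copies are therefore uncertain.

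The genes lower in BAT included 2 transcription factor genes that mark the mesothelial lining of the abdomen. Wt1, the Wilms tumour transcription factor gene, held 0, 0.0654 and 0 CPM in BAT libraries, which is 1 count in all, against 4.05, 10.99 and 34.7 CPM in RWAT libraries. All 3 RWAT libraries lay above all 3 BAT libraries, and the ratio of RWAT over BAT in the pooled counts was 803 (95% interval 144 to 31733, counting error only). The log2 fold change was −9.24 (SE 1.21, edgeR adjusted p = 0.0415), and without RWAT replicate 3 it was −8.11 (edgeR adjusted p = 0.0223), with a pooled ratio of 387 (95% interval 69.0 to 15354). Bnc1, which encodes the zinc finger protein basonuclin 1, held 0, 0.0654 and 0.0489 CPM in BAT libraries, 2 counts in all, and 3.33, 2.84 and 12.6 CPM in RWAT libraries. The ratio of RWAT over BAT in pooled Bnc1 counts was 148 (95% interval 40.7 to 1228), with a log2 fold change of −7.04 (SE 0.95, edgeR adjusted p = 0.0415). For RWAT replicates 1 and 2 alone the Bnc1 ratio was 73.9 (95% interval 20.01 to 617) and the log2 fold change −6.03 (edgeR adjusted p = 0.0255). EWAT libraries held 20.6 to 38.8 CPM of Wt1 and 9.34 to 16.6 CPM of Bnc1, and IWAT libraries at most 0.157 CPM of Wt1 and 0.104 CPM of Bnc1.

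Of the 12 mesothelial markers, 2 fell in BAT (Wt1 and Bnc1), none rose and 10 did not pass, where 0.0261% of all genes were called lower. Their median log2 fold change was −5.68, and 11 of the 12 lay lower in all 3 BAT libraries than in all 3 RWAT libraries, where the background share was 9.33%. The list summed to 16.3, 20.6 and 16.7 CPM in BAT libraries and 118, 106 and 385 CPM in RWAT libraries, so the replicate that held muscle RNA also held the most mesothelial RNA. When RWAT replicate 3 was left out, Upk1b and Krt19 fell as well and the median was −4.37, where 0.034% of all genes were called lower. Upk1b, a tetraspanin gene of mesothelium and urothelium, held 0, 0.0654 and 0 CPM in BAT libraries and 4.17, 5.81 and 31.0 CPM in RWAT libraries. With 3 RWAT libraries its edgeR adjusted p was 0.058, and without replicate 3 it was 0.0255. Krt19, an epithelial keratin gene, held 0.472, 0.393 and 0.783 CPM in BAT libraries and 5.72, 5.63 and 29.9 CPM in RWAT libraries (edgeR adjusted p = 0.128, and 0.0321 without replicate 3). Upk3b, Msln (mesothelin) and Muc16 were at most 1.05 CPM in any BAT library and at least 7.25 CPM in every RWAT library, and none of them passed. DESeq2 called 10 of the 12 lower in both fits, where it called 0.647% of all genes lower with 3 RWAT libraries and 0.325% without RWAT replicate 3. In bulk tissue, fewer cells of a type and less RNA per cell cannot be told apart.

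Col4a6 encodes a basement membrane collagen chain. It held 0.551, 0.327 and 0.391 CPM in BAT libraries, against 4.11, 3.38 and 12.5 CPM in RWAT libraries. The log2 fold change was −3.97 (SE 0.54, edgeR adjusted p = 0.0415), and without RWAT replicate 3 it was −3.14 (edgeR adjusted p = 0.0223). Its pattern across depots followed that of the mesothelial markers, with 18.0 to 24.9 CPM in EWAT libraries and 0.797 to 1.22 CPM in IWAT libraries. Slc39a8 held 5.35, 5.04 and 4.99 CPM in BAT libraries and 20.2, 13.6 and 27.0 CPM in RWAT libraries. Its log2 fold change was −1.98 (SE 0.26, edgeR adjusted p = 0.0415), and without RWAT replicate 3 it was −1.72 (edgeR adjusted p = 0.0271). The level of Slc39a8 hardly varied among BAT libraries. EWAT libraries held 12.5 to 14.1 CPM of Slc39a8 and IWAT libraries 5.78 to 8.03 CPM.

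Hox genes are arranged in 4 clusters, and a gene's place in its cluster follows the body level at which it is used, from head to tail. Among the posterior members 1 gene, Hoxc10, fell in BAT. Hoxc10 held 0.0787, 0 and 0 CPM in BAT libraries, 1 count in all, against 7.80, 5.18 and 1.47 CPM in RWAT libraries. The ratio of RWAT over BAT in pooled Hoxc10 counts was 230 (95% interval 41.0 to 9133), and 306 for RWAT replicates 1 and 2 alone (95% interval 54.3 to 12116). The log2 fold change was −7.43 (SE 1.03, edgeR adjusted p = 0.0415), and without RWAT replicate 3 it was −7.86 (edgeR adjusted p = 0.0223). Of the 14 posterior Hox genes tested, where 0.0261% of all genes were called lower, Hoxc10 fell and 13 did not pass. Among those, Hoxc9 held 0.472, 0.916 and 0.196 CPM in BAT libraries and 7.68, 4.68 and 4.57 CPM in RWAT libraries (log2 −3.42, SE 0.53, edgeR adjusted p = 0.0839). Hoxa9 held 1.02, 0.785 and 0.0978 CPM in BAT libraries and 14.9, 6.98 and 5.55 CPM in RWAT libraries (log2 −3.88, edgeR adjusted p = 0.181). Hoxa10 held 0.63, 0.327 and 0.0489 CPM in BAT libraries and 10.8, 4.77 and 1.52 CPM in RWAT libraries (log2 −4.14, edgeR adjusted p = 0.283). Leaving out RWAT replicate 3 gave log2 fold changes of −3.56 for Hoxc9, −4.15 for Hoxa9 and −4.59 for Hoxa10, with edgeR adjusted p-values of 0.0536, 0.0719 and 0.0595. DESeq2 called these 4 genes and no other Hox gene with 3 RWAT libraries, where it called 0.647% of all genes lower.

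No other Hox gene passed, including those further towards the head end. Hoxb9 and Hoxd9, with the same paralogue number as Hoxa9 and Hoxc9, were tested too. Neither edgeR nor DESeq2 called them with 3 RWAT libraries. In the Hoxa cluster, Hoxa7 held 13.2, 7.39 and 2.94 CPM in BAT libraries and 11.3, 5.14 and 6.96 CPM in RWAT libraries. Hoxd8 held 12.99, 13.3 and 12.6 CPM in BAT libraries and 13.1, 13.7 and 12.8 CPM in RWAT libraries, with a log2 fold change of −0.03 (SE 0.19) that turned to 0.02 under other scalings. The posterior list as a whole had a median log2 fold change of −0.42, and −0.37 without RWAT replicate 3. Of its 14 genes tested, 5 lay lower in all 3 BAT libraries than in all 3 RWAT libraries (35.7%, background 9.33%). Without RWAT replicate 3 this held for 6 of 15 (40%, background 12.3%). None of the 12 anterior Hox genes tested passed in either direction, their median was 0.46, and 3 of them lay higher in all 3 BAT libraries than in all 3 RWAT libraries (25% of the list, background 7.42%). When RWAT replicate 3 was left out, 0 of 13 passed, the median was 0.83, and 7 lay higher in all BAT libraries (53.8%, background 10.9%). DESeq2 then called 1 of the 13 higher, where it called 1.53% of all genes higher. Hoxb4 held 5.75, 7.07 and 6.56 CPM in BAT libraries and 2.38, 3.60 and 4.62 CPM in RWAT libraries (log2 0.87, edgeR adjusted p = 0.319). Hoxa3 ran the other way, with 1.97, 3.40 and 2.20 CPM in BAT libraries and 5.12, 4.77 and 4.57 CPM in RWAT libraries (log2 −0.93, edgeR adjusted p = 0.319). Hoxc5 had the highest mean of the anterior list, with 19.2, 15.2 and 5.38 CPM in BAT libraries and 8.52, 5.04 and 7.94 CPM in RWAT libraries. Annotated exons of Hoxc5 and Hoxc10 share 166 bases on the same strand, and reads from there can belong to either gene. In BAT libraries Hoxc10 was near 0 while Hoxc5 held 5.38 to 19.2 CPM.

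**Figure D3:**
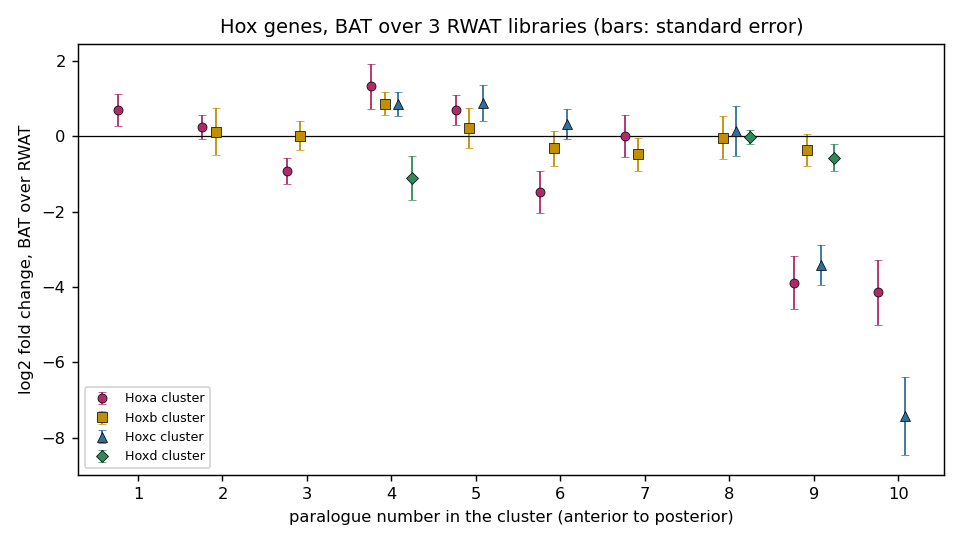
Log2 fold change of BAT over 3 RWAT libraries (vertical axis, bars are standard errors) for the 26 Hox genes tested, by paralogue number (horizontal axis) and cluster (colour and symbol). Hoxa9, Hoxc9, Hoxa10 and Hoxc10 lie at −3.42 to −7.43, and the other genes lie nearer to 0.

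Other transcription factor genes of the depots' embryonic origin did not pass by edgeR, several of them with a raised level in RWAT replicate 3. Of the 9 brown lineage genes tested, where 0.0313% of all genes were called higher, Lhx8 rose and 8 did not pass. Their median log2 fold change was 0.66. Of the 10 that could be tested without RWAT replicate 3, Lhx8 alone rose and the median was 0.55. Zic1, a zinc finger gene of dorsal mesoderm and a marker of interscapular brown fat, held 3.07, 1.90 and 13.3 CPM in BAT libraries and 0.179, 0.180 and 1.90 CPM in RWAT libraries. RWAT replicate 3 lay level with the lowest BAT library, and the log2 fold change was 3.02 (edgeR adjusted p = 0.319), against 5.04 without that replicate (edgeR adjusted p = 0.153). Tbx15, a T-box gene of brown and subcutaneous fat that also acts in muscle, held 36.8, 38.3 and 24.7 CPM in BAT libraries and 4.35, 6.40 and 21.9 CPM in RWAT libraries. Its log2 fold change was 1.61 (edgeR adjusted p = 0.319), and 2.62 without replicate 3 (edgeR adjusted p = 0.0831). Shox2 held 13.9, 9.36 and 4.84 CPM in BAT libraries and 0.417, 0.991 and 2.01 CPM in RWAT libraries (log2 3.02, edgeR adjusted p = 0.307, and 3.69 without replicate 3, edgeR adjusted p = 0.145). Irx5, of the Iroquois homeobox family, held 3.07, 1.83 and 2.64 CPM in BAT libraries and 0.0595, 0.045 and 0.707 CPM in RWAT libraries (log2 3.20, edgeR adjusted p = 0.319). Replicate 3 was again the highest RWAT library, and without it the log2 fold change of Irx5 was 5.43 (edgeR adjusted p = 0.179). Tbx5, a T-box gene of the forelimb level, held 1.89, 1.64 and 1.27 CPM in BAT libraries and 0.357, 0.135 and 0.435 CPM in RWAT libraries (log2 2.36, edgeR adjusted p = 0.25). Ebf2, a selector of brown adipocyte identity, differed little, with 65.8, 66.3 and 43.7 CPM in BAT libraries and 45.1, 30.3 and 35.8 CPM in RWAT libraries (log2 0.66, edgeR adjusted p = 0.327). Pax3, of the somite lineage, was lower in all 3 BAT libraries (0.0787, 0.327 and 0.294 CPM) than in RWAT libraries (0.595, 2.57 and 1.14 CPM) and did not pass (edgeR adjusted p = 0.319). Tcf21, a visceral stromal factor gene, had no count in any BAT library, against 0, 0.36 and 0.544 CPM in RWAT libraries. Set against 3 counts over the BAT libraries it was at least 5.06-fold lower in BAT, or at least 3.31-fold without RWAT replicate 3, and it passed in neither fit (edgeR adjusted p = 0.319 and 0.55). Of the 10 posterior and visceral developmental genes tested, Wt1 and Bnc1 fell and 8 did not pass. Of 13 white depot patterning genes Hoxc10 fell and 12 did not pass, where 0.0261% of all genes were called lower. The medians of these lists were −2.48 and 0.40, and −3.20 (11 tested) and 0.49 without RWAT replicate 3, with the same 3 genes called by edgeR. DESeq2 also called Tbx5 and Shox2 higher with 3 RWAT libraries (DESeq2 adjusted p = 0.0034 and 0.000657), where it called 1.09% of all genes higher. Without replicate 3 it called 2 of 11 posterior and visceral, 3 of 13 white depot and 2 of 10 brown lineage genes higher. In that fit it called 1.53% of all genes higher.

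Genes of heat production all had a positive log2 fold change in BAT over RWAT, 8 of 30 overlapped between the depots, and none was called. Of the 30 thermogenic genes, 0 passed, all 30 had a positive log2 fold change, and the median was 3.07 against −0.07 for all genes tested. In 22 of the 30 all 3 BAT libraries lay above all 3 RWAT libraries, where the background share was 7.42%. DESeq2 called 16 of the 30, where it called 1.09% of all genes as higher. Without RWAT replicate 3 the median was 2.88, edgeR called 0 and DESeq2 13, where DESeq2 called 1.53% of all genes higher. The spread among BAT libraries was wide. The list summed to 11885, 3765 and 2737 CPM in BAT libraries and 3689, 253 and 317 CPM in RWAT libraries. By this sum RWAT replicate 1 lay above BAT replicate 3. Most of the sum in RWAT replicate 1 was Me1, also a lipogenic gene, with 2984 CPM there and 668 CPM in BAT replicate 3. The mean log2 CPM over the list, in which each gene weighs alike, was 7.13, 4.38 and 5.34 in BAT libraries. In RWAT libraries this mean was 3.65, 1.80 and 2.20, so RWAT replicate 1 lay below every BAT library by it.

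Ucp1 (ENSMUSG00000031710, chromosome 8, 83290352 to 83298452), the uncoupling protein itself, held 2962, 32.2 and 702 CPM in BAT libraries, against 12.4, 1.31 and 0.163 CPM in RWAT libraries. Every BAT library lay above every RWAT library, but BAT replicates 1 and 2 stood further apart, in fold, than BAT replicate 2 and RWAT replicate 1. The log2 fold change was 8.07 (SE 1.90, edgeR adjusted p = 0.319), and 7.50 without RWAT replicate 3 (edgeR adjusted p = 0.322). BAT replicate 2 lay below IWAT replicates 1 and 2, which held 47.6 and 130 CPM. The 250 bases before RefSeq's start of Ucp1 on the plus strand are shown, since it is the gene that defines brown fat, with TATATA in capitals:
Ucp1, chr8:83290098-83290347: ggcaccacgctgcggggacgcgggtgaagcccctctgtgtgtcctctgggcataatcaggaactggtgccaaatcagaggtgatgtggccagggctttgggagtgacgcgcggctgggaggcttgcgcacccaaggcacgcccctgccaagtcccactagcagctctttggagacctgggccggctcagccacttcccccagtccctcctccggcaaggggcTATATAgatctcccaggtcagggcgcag
TATATA, a run of the TATA-box type that reads the same on both strands, is in 5.25% of the 32851 RefSeq windows of this length.

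Slc27a2, which activates very long chain fatty acids, had the largest fold change of the list. It held 100, 4.12 and 32.2 CPM in BAT libraries and 0.238, 0.0901 and 0.163 CPM in RWAT libraries (log2 8.10, SE 1.41, edgeR adjusted p = 0.15, and 8.11 without RWAT replicate 3, edgeR adjusted p = 0.176). Cpn2, a carboxypeptidase N subunit gene, held 33.3, 1.37 and 11.7 CPM in BAT libraries and 0.357, 0.135 and 0 CPM in RWAT libraries (log2 6.53, edgeR adjusted p = 0.223). Elovl3, an elongase of saturated fatty acids, held 75.9, 2.49 and 11.8 CPM in BAT libraries and 1.13, 0.135 and 0.109 CPM in RWAT libraries (log2 6.06, edgeR adjusted p = 0.319). In each of these genes BAT replicate 1 was highest and BAT replicate 2 lowest, the order also seen for Ucp1. Cidea, a lipid droplet protein gene, held 853, 52.1 and 236 CPM in BAT libraries and 30.4, 0.766 and 0.217 CPM in RWAT libraries (log2 5.19, edgeR adjusted p = 0.322). Dio2, the deiodinase that activates thyroid hormone, held 121, 7.98 and 44.8 CPM in BAT libraries and 2.68, 0.586 and 4.02 CPM in RWAT libraries (log2 4.58, edgeR adjusted p = 0.319, and 5.16 without replicate 3, edgeR adjusted p = 0.391). Cox7a1 and Cox8b encode subunits of cytochrome c oxidase shared by muscle and brown fat. Cox7a1 held 351, 23.0 and 70.0 CPM in BAT libraries and 6.01, 1.98 and 8.05 CPM in RWAT libraries (log2 4.79, edgeR adjusted p = 0.307, and 5.22 without replicate 3, edgeR adjusted p = 0.29). Cox8b held 803, 88.9 and 142 CPM in BAT libraries and 39.7, 0.405 and 12.6 CPM in RWAT libraries (log2 4.30, edgeR adjusted p = 0.319, and 4.11 without replicate 3, edgeR adjusted p = 0.54). RWAT replicate 2 was the lowest library for both.

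Regulators of the programme had smaller fold changes with narrower errors. Ppargc1a, the coactivator that drives mitochondrial biogenesis, held 30.7, 14.9 and 15.0 CPM in BAT libraries and 7.86, 0.991 and 3.37 CPM in RWAT libraries (log2 2.31, SE 0.69, edgeR adjusted p = 0.319). Prdm16, a determinant of brown fat fate, held 20.5, 10.7 and 10.7 CPM in BAT libraries and 6.49, 5.14 and 2.94 CPM in RWAT libraries (log2 1.52, SE 0.49, edgeR adjusted p = 0.319). Irf4, an interferon regulatory factor that acts with Ppargc1a in the cold, held 38.5, 31.3 and 25.3 CPM in BAT libraries and 12.4, 3.92 and 7.12 CPM in RWAT libraries (log2 2.02, SE 0.44, edgeR adjusted p = 0.295). In these 3 genes the libraries of the depots did not overlap, and BAT replicate 2 lay level with or above BAT replicate 3. In Fabp3, the muscle-type fatty acid binding protein gene, RWAT replicate 3 held 14.8 CPM, close to the 15.1 CPM of BAT replicate 2, and the log2 fold change was 3.93 with that replicate and 6.89 without it. Adrb3, the β3-adrenergic receptor gene of fat cells, overlapped widely, with 208, 346 and 70.8 CPM in BAT libraries and 232, 12.5 and 15.2 CPM in RWAT libraries (log2 1.27, edgeR adjusted p = 0.511). Me1, malic enzyme, had the highest mean of the list and also overlapped, with 3509, 2739 and 668 CPM in BAT libraries and 2984, 55.6 and 82.3 CPM in RWAT libraries.

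**Figure D4:**
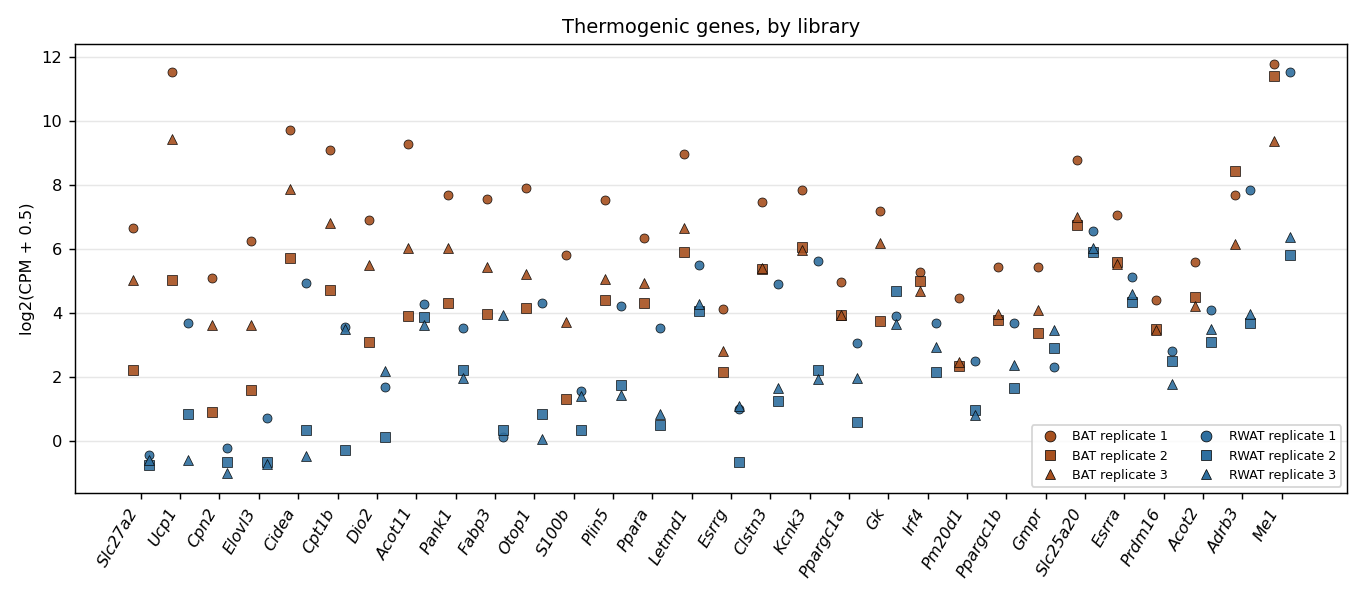
Level of the 30 thermogenic genes as log2(CPM + 0.5), ordered by fold change, in BAT libraries (brown, left of each gene) and RWAT libraries (blue, right), with a symbol per replicate. BAT replicate 1 is the highest library for nearly every gene, and at Adrb3 and Me1, which have the smallest fold changes, RWAT replicate 1 lies among the BAT libraries.

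Adipocyte genes differed several-fold among libraries of 1 depot, so the levels were also set against adiponectin. Adipoq, which encodes this hormone of mature fat cells, held 1553, 1829 and 814 CPM in BAT libraries and 1569, 257 and 276 CPM in RWAT libraries (log2 1.00, SE 0.74, edgeR adjusted p = 0.473). For the authors' TPM values divided by the TPM of Adipoq in the same library, a scale chosen after values were seen, 0.595% of all genes tested lay higher in all 3 BAT libraries and 9.39% lay lower. On this scale 7 of the 30 thermogenic genes kept all BAT libraries above all RWAT libraries: Ucp1, Cidea, Elovl3, Slc27a2, Cpn2, Kcnk3 and Ppara. The ratio of Ucp1 to Adipoq TPM was 1.14, 0.0102 and 0.513 in BAT libraries and 0.00472, 0.00319 and 0.000355 in RWAT libraries. The ratio of Slc27a2 to Adipoq TPM was 0.0269, 0.00108 and 0.0152 in BAT libraries and 5.07e-05, 0.000117 and 0.000511 in RWAT libraries.

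The respiratory chain lay higher in BAT, with medians below that of the thermogenic list. Of the 57 nuclear genes tested for complexes I to III, cytochrome c oxidase and ATP synthase, 0 passed, all 57 had a positive log2 fold change, and 42 had all 3 BAT libraries above all 3 RWAT libraries (background 7.42%). The median log2 fold change was 1.72 for complex I, 1.92 for complexes II and III, 1.76 for the general subunits of cytochrome c oxidase and 1.44 for ATP synthase. With RWAT replicate 3 left out these medians were 1.55, 1.75, 1.59 and 1.29, again with 0 called. DESeq2 called 7 of the 57 higher, where it called 1.09% of all genes higher. Without RWAT replicate 3 it called 0 of the 57, which is near the 1.53% of all genes it called higher there. Sdha, the flavoprotein of succinate dehydrogenase, held 2013, 741 and 541 CPM in BAT libraries and 516, 133 and 147 CPM in RWAT libraries (log2 2.05, SE 0.71, edgeR adjusted p = 0.319). Atp5b, the catalytic subunit of ATP synthase, held 5522, 1934 and 1394 CPM in BAT libraries and 1452, 487 and 508 CPM in RWAT libraries (log2 1.85, edgeR adjusted p = 0.319). Cox4i1, the general cytochrome c oxidase subunit with the highest mean, differed by 1.79 on the log2 scale (edgeR adjusted p = 0.319). Relative to Adipoq TPM, none of the 57 kept the depots apart. On that scale 0.595% of all genes lay higher in all 3 BAT libraries and 9.39% lay lower. A count of 0 higher genes is therefore near the background and is not a result about these 57. The ratio of Sdha to Adipoq TPM, for example, was 0.716, 0.216 and 0.365 in BAT libraries and 0.161, 0.319 and 0.267 in RWAT libraries.

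The 13 mRNAs of the mitochondrial genome followed, with a median log2 fold change of 1.48 (1.24 without RWAT replicate 3) and 0 called in either fit. Transcripts of that genome made up 19.0%, 13.01% and 13.4% of counts in BAT libraries and 11.6%, 3.28% and 3.79% in RWAT libraries, so RWAT replicate 1 was nearer to BAT than to the other RWAT libraries. mt-Co1, a catalytic subunit of cytochrome c oxidase, held 38452, 20093 and 19269 CPM in BAT libraries and 17484, 4995 and 5369 CPM in RWAT libraries (log2 1.48, edgeR adjusted p = 0.336). Of the 22 genes of fatty acid oxidation, 0 passed, 21 had a positive log2 fold change, and the median was 1.99. Leaving out RWAT replicate 3 gave a median of 1.64 and 0 called. Hadhb, of the trifunctional protein, held 1965, 346 and 484 CPM in BAT libraries and 343, 101 and 72.2 CPM in RWAT libraries (log2 2.44, edgeR adjusted p = 0.319). Cpt1b, the muscle and brown fat form of the carnitine palmitoyltransferase that admits fatty acids to mitochondria, held 548, 25.7 and 112 CPM in BAT libraries and 11.3, 0.315 and 10.7 CPM in RWAT libraries (log2 4.94, edgeR adjusted p = 0.319). Cpt1a, the liver form, was the exception with the other sign, with 50.7, 52.5 and 142 CPM in BAT libraries and 74.0, 174 and 179 CPM in RWAT libraries (log2 −0.80, edgeR adjusted p = 0.404). The 2 forms thus stood in opposite order in the depots, and neither difference passed.

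Genes of fat synthesis and storage overlapped between the depots, with 1 of 15 lipogenic and 0 of 14 triglyceride genes higher in all 3 BAT libraries than in all 3 RWAT libraries (background 7.42%). Relative to Adipoq TPM these counts were 1 of 15 and 3 of 14, where the background share was 0.595%. Of the 15 lipogenic genes 0 passed, and the median log2 fold change was 1.51, or 1.15 without RWAT replicate 3. Fasn, fatty acid synthase, held 55177, 32584 and 8260 CPM in BAT libraries and 20804, 250 and 550 CPM in RWAT libraries (log2 2.15, SE 1.54, edgeR adjusted p = 0.464). Scd1, stearoyl-CoA desaturase, had the highest mean of the list, with 63838, 42411 and 14529 CPM in BAT libraries and 52864, 3198 and 1921 CPM in RWAT libraries (log2 1.06, edgeR adjusted p = 0.632). The triglyceride list had a median of 1.303 and the lipolysis list 1.01, and without RWAT replicate 3 these were 0.83 and 0.56, each with 0 called. Plin4 and Lpl, their members with the highest mean, overlapped (edgeR adjusted p = 0.699 and 0.712). Pnpla2, the triglyceride lipase of fat cells, held 2164, 1819 and 710 CPM in BAT libraries and 1042, 118 and 128 CPM in RWAT libraries (log2 1.87, edgeR adjusted p = 0.349). Of the 16 genes of branched-chain amino acid breakdown 0 passed, with a median of 1.43, or 1.09 without RWAT replicate 3.

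Of the 19 genes of glucose uptake and glycolysis 0 passed, 17 had a positive log2 fold change, and the median was 1.26, or 1.33 without RWAT replicate 3. Aldoa, aldolase A, held 5952, 2256 and 1119 CPM in BAT libraries and 1498, 459 and 957 CPM in RWAT libraries (log2 1.68, edgeR adjusted p = 0.33). Slc2a1, the basal glucose transporter, was lower in all 3 BAT libraries, with 13.3, 10.1 and 15.5 CPM against 16.02, 28.2 and 25.1 CPM in RWAT libraries (log2 −0.83, edgeR adjusted p = 0.319). Pdk4, the kinase that shuts pyruvate out of oxidation, held 862, 137 and 313 CPM in BAT libraries and 76.8, 23.7 and 107 CPM in RWAT libraries (log2 2.66, edgeR adjusted p = 0.319). Ldhb, a lactate dehydrogenase subunit, held 379, 61.6 and 86.8 CPM in BAT libraries and 43.2, 5.14 and 13.9 CPM in RWAT libraries (log2 3.08, edgeR adjusted p = 0.319).

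None of 18 white adipocyte markers passed. The median was 0.49, and 0.16 without RWAT replicate 3. DESeq2 called 2 of the 18 lower, Mest and Hoxc9, where it called 0.647% of all genes lower. Lep, which encodes leptin, held 289, 319 and 75.9 CPM in BAT libraries and 705, 68.5 and 19.8 CPM in RWAT libraries (log2 −0.21, SE 1.19, edgeR adjusted p = 0.928), and its direction changed with the tool. Cfd, adipsin, held 6128, 8545 and 2935 CPM in BAT libraries and 5411, 675 and 827 CPM in RWAT libraries (log2 1.35, edgeR adjusted p = 0.444). Mest, an imprinted gene tied to fat cell size, was lower in all 3 BAT libraries, with 3.70, 3.93 and 24.2 CPM against 39.7, 137 and 70.3 CPM in RWAT libraries (log2 −2.95, SE 0.78, edgeR adjusted p = 0.319). Annotated exons of Mest overlap those of Copg2 on the other strand by 912 bases, and whether counting used the strand is not given in the sources used here.

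Of 8 adrenergic receptor genes tested 0 passed, with a median of 1.19, or 1.04 without RWAT replicate 3. Adra1a, an α1 receptor gene, held 82.0, 15.7 and 22.7 CPM in BAT libraries and 15.5, 5.59 and 1.47 CPM in RWAT libraries (log2 2.42, edgeR adjusted p = 0.319). Adrb1, the β1 receptor gene, held 13.6, 6.61 and 4.40 CPM in BAT libraries and 3.87, 1.31 and 1.14 CPM in RWAT libraries (log2 1.96, edgeR adjusted p = 0.319). Both receptors lay higher in every BAT library than in every RWAT library, unlike Adrb3.

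Skeletal muscle genes were called in BAT only when RWAT replicate 3 was left out. That replicate was left out because it held skeletal muscle transcripts. The muscle calls without it therefore follow in part from this choice and are no separate evidence of a depot difference. With 3 RWAT libraries 0 of the 23 muscle markers passed and their median log2 fold change was 1.33. Without that replicate 16 rose, 7 did not pass and the median was 7.70, where 0.185% of all genes were called higher. Ckm, muscle creatine kinase, held 1493, 1004 and 174 CPM in BAT libraries and 0.595, 1.13 and 882 CPM in RWAT libraries. RWAT replicate 3 lay inside the range of BAT, and the log2 fold change was 1.60 (edgeR adjusted p = 0.636) with it and 9.98 (edgeR adjusted p = 0.0364) without it. Ttn, the giant spring protein titin, held 7484, 4779 and 795 CPM in BAT libraries and 19.5, 50.3 and 7339 CPM in RWAT libraries, with log2 fold changes of 0.82 (edgeR adjusted p = 0.776) and 6.96 (edgeR adjusted p = 0.0364). Pvalb, a calcium buffer of fast fibres, held 343, 265 and 51.4 CPM in BAT libraries and 0.179, 0.135 and 175 CPM in RWAT libraries, and its log2 fold change was 1.91 with replicate 3 and 10.41 without it (edgeR adjusted p = 0.0223). Without replicate 3 the genes with the next largest changes under the naming rule, which leaves out predicted genes and a mean log2 CPM below 3, each with an edgeR adjusted p of 0.0223 to 0.0364, were also of the sarcomere and its calcium store: Tcap (log2 9.26), Mybpc1 (8.94), Tnnt3 (8.88), Tnnc2 (8.80), Atp2a1 (8.78), Mylpf (8.72), Myot (8.67), Myh2 (8.63), Myh1 (8.58) and Tnni2 (8.41).

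Of the 38 genes called higher without RWAT replicate 3, 31 had that replicate at or above the lowest BAT library. The 7 whose level in it stayed below all BAT libraries were Lhx8, Rps16, Rps16-ps2, Gm12918, Gm7334, Ankrd2 and Xirp1, of which the last 2 are muscle genes. Gm7334, a predicted gene outside the naming rule, held 9.29, 8.24 and 5.97 CPM in BAT libraries and 0, 0 and 2.07 CPM in RWAT libraries. For all 7 genes called lower, RWAT replicate 3 lay above all BAT libraries. In the fit of RWAT replicates 1 and 2, the count fell to 4 without BAT replicate 1, to 0 without BAT replicate 2, RWAT replicate 1 or RWAT replicate 2, and was 133 without BAT replicate 3. Leaving out RWAT replicate 1 or 2 there keeps 1 RWAT library, which is assumed to vary like the other depots.

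**Figure D5:**
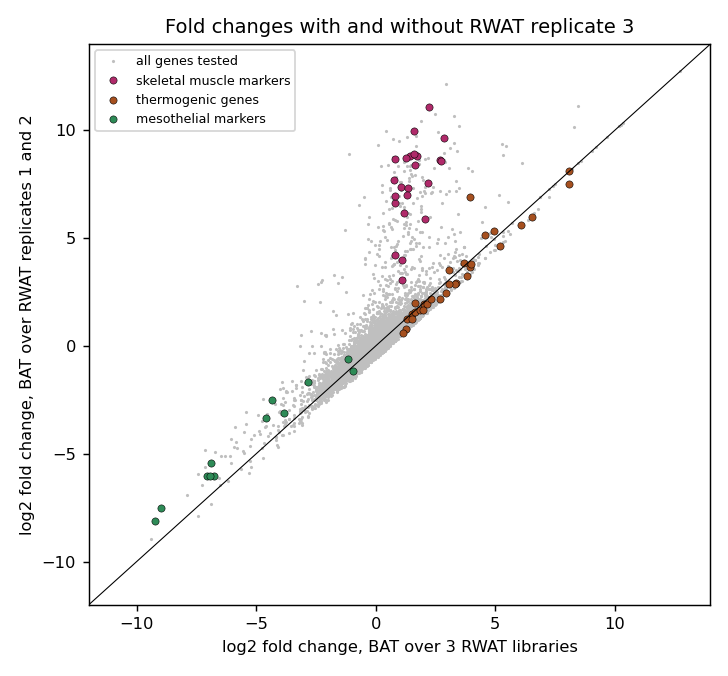
Log2 fold change of BAT over RWAT with 3 RWAT libraries (horizontal) and with RWAT replicates 1 and 2 (vertical) for all genes tested (grey), skeletal muscle markers (magenta), thermogenic genes (brown) and mesothelial markers (green). The muscle markers leave the diagonal, with a median of 1.33 on the horizontal and 7.70 on the vertical axis, while most thermogenic genes stay near it, with medians of 3.07 and 2.88.

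The muscle RNA of RWAT replicate 3 differed in make-up from that of BAT. Of the TPM of 4 adult myosin heavy chain genes, Myh4, of the fastest fibres, made up 59.9%, 63.7% and 66.5% in BAT libraries and 85.7% in RWAT replicate 3. Myh1 made up 26.5%, 29.5% and 20.2% in BAT libraries and 10.0% in RWAT replicate 3. Myh7, of slow fibres, made up 4.58%, 0.642% and 0.0867% in BAT libraries and 1.21% in RWAT replicate 3. This sets 3 libraries against 1, so it has no test. The 250 bases before RefSeq's starts of Acta1, skeletal α-actin, and Pvalb are shown as examples of muscle genes whose fold change depended on replicate 3. Capitals mark the motif TATATA, the E-box of myogenic factors (spelled CANNTG) and the CArG box of serum response factor, each of which reads the same on both strands:
Acta1, chr8:123894776-123895025, minus strand: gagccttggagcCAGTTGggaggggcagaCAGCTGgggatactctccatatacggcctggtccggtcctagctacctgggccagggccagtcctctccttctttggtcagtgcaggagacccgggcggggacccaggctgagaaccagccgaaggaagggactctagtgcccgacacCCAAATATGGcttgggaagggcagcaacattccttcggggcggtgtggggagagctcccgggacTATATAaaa
Pvalb, chr15:78206401-78206650, minus strand: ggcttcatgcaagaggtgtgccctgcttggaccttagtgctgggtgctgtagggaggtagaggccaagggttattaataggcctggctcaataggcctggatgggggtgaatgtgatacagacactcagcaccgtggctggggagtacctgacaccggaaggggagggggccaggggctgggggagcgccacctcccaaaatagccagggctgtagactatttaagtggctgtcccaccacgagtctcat
Acta1 holds 2 E-boxes, 1 CArG box and 1 TATATA, and Pvalb holds none of the 3. Over all 32851 windows of this length, 66.2% hold CANNTG, 1.47% a CArG box and 5.25% TATATA.

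In the creatine and calcium cycling list, 2 calcium-handling genes shared this dependence on RWAT replicate 3. With 3 RWAT libraries 0 of 11 tested passed and the median log2 fold change was 0.29. Without replicate 3 the median was 1.52, and Atp2a1 and Ryr1, the calcium pump and release channel of muscle, rose. In that fit 0.185% of all genes were called higher. Ryr1 held 522, 317 and 60.8 CPM in BAT libraries and 1.01, 2.52 and 432 CPM in RWAT libraries (log2 1.05 with replicate 3, and 7.38 without it, edgeR adjusted p = 0.0423). Both genes are also in the muscle list, so the limit given for the muscle calls holds for them too.

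Apart from the mesothelial and muscle lists, no marker of another cell type passed by edgeR with or without RWAT replicate 3. DESeq2 called 1 kidney marker lower and 1 Schwann list gene higher in both fits. With 3 RWAT libraries the kidney marker was Lrp2 (DESeq2 adjusted p = 0.000657). DESeq2 called 0.647% of all genes lower and 1.09% higher with 3 RWAT libraries, and 0.325% and 1.53% without replicate 3. The 12 endothelial markers had a median log2 fold change of −0.52 with 0 called, and 2 lay lower in all BAT libraries (background 9.33%). When RWAT replicate 3 was left out the median was −0.79, and 6 of the 12 lay lower in all BAT libraries (50%, background 12.3%). In that fit edgeR called 0 of them and DESeq2 called 1 lower, where DESeq2 called 0.325% of all genes lower. Cdh5, VE-cadherin, held 114, 81.8 and 142 CPM in BAT libraries and 166, 319 and 116 CPM in RWAT libraries (log2 −0.83, edgeR adjusted p = 0.325). Cldn5, a tight junction gene, held 14.5, 15.0 and 18.1 CPM in BAT libraries and 39.8, 40.6 and 14.7 CPM in RWAT libraries, so RWAT replicate 3 lay with BAT (edgeR adjusted p = 0.319, and 0.0572 without that replicate). Tek, an angiopoietin receptor gene, was steady within each depot, with 56.0, 55.9 and 52.2 CPM in BAT libraries and 36.7, 36.3 and 33.0 CPM in RWAT libraries (log2 0.63, SE 0.19, edgeR adjusted p = 0.319). The progenitor and fibroblast markers had a median of 0.03 and the macrophage markers of −0.48 (0.25 and −0.31 without RWAT replicate 3), with Lyz2 at 287, 479 and 2543 CPM in BAT libraries and 682, 2294 and 2395 CPM in RWAT libraries. Kidney and adrenal tissue lie close to RWAT. Of 12 kidney markers only 3 could be tested, and the list summed to 3.94, 2.22 and 4.35 CPM in BAT libraries and 8.63, 10.3 and 31.2 CPM in RWAT libraries, most of the RWAT sums being Lrp2 (0, 0.654 and 0.0489 CPM in BAT libraries and 6.37, 6.40 and 27.6 CPM in RWAT libraries), which EWAT also held at 10.2 to 68.8 CPM. Of 10 adrenal cortex markers 4 could be tested and 0 passed. None passed among 10 B cell, 14 T and NK cell, 11 Schwann cell, 5 sympathetic neuron, 5 red blood cell and 10 immediate early genes tested, whose medians were −0.58, 0.60, 0.28, −1.58, −0.10 and −0.32. In the fit without RWAT replicate 3 these medians were −0.63, 0.40, 0.25, −1.36, −0.01 and −0.22, again with 0 called.

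Whether RWAT itself stood apart from the other white depots was tested as RWAT against the mean of EWAT and IWAT. By edgeR 0 of 19154 genes were called (0%), and 917 (4.79%) had an unadjusted p under 0.05. DESeq2 called 152 of the 19154, 112 higher and 40 lower in RWAT. Of these, 19 are in the list of 23 muscle markers, whose RNA was high in RWAT replicate 3. DESeq2 was not run for this comparison without that replicate. Without RWAT replicate 3 edgeR also called 0, with 633 genes at an unadjusted p under 0.05. For the 11 genes called between BAT and RWAT, the lowest edgeR adjusted p in this test was 0.348. Of these, 6 had an unadjusted edgeR p under 0.05 (Wt1, Rps16, Slc39a8, Bnc1, Rps16-ps2 and Mup1), but they were picked with the same RWAT libraries. EWAT and IWAT stood far apart at several of the 11, such as Wt1 and Gm12918. Their mean stands for neither depot there, so the test cannot settle the question for such genes. No difference between BAT and RWAT was shown to be particular to RWAT among white depots.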

How the data were processed

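Total RNA of 12 fat libraries was depleted of ribosomal RNA and sequenced. Per the submitters' processing notes, Trimmomatic 0.36, RSEM 1.3.0, DESeq2 1.10.1 and GRCm38.p4 were used. Per the file headers, the authors deposited RSEM expected counts, TPM and a posterior SD of the count for each of 47729 genes. The sources used here do not give the annotation, or whether counting used the strand. Expected counts were rounded. All 12 libraries were fitted by depot with edgeR 4.0.16 (filterByExpr, TMM, quasi-likelihood test, R 4.3.3). A second fit left out RWAT replicate 3 because it held skeletal muscle transcripts. The biological coefficient of variation was 0.448 over 12 libraries. The authors' TPM were used only for ratios to Adipoq and for myosin shares. DESeq2 1.42.0, limma 3.58.1, other scalings and filters, a replicate term and leaving out each library were the alternatives. The gene coordinates are from GENCODE M21, which held 47224 of the identifiers. The fit was also run on simulated counts with the same spread for every gene and no shift of many genes together within a depot. Libraries of a depot here did show such shifts, as given above, so that run does not bear on the calls.

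The members and gene lists were chosen with earlier results of these data known. Named genes were core depot genes, in each fit the called genes with the largest changes (up to 12 a direction, mean log2 CPM of at least 3, no predicted genes), and for each list its leading called members or, with none called, its member with the highest mean. An item that this rule would name is not reported here. Genes named beyond this, such as Hoxc9, Irf4, Cpt1a, Mest, Tek, Mup1 and the Rps16 pseudogenes, were chosen after their values were seen. Intervals and floors cover counting error only, and reads carry no molecular identifiers.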

Additional observations from a re-analysis of the deposited data

How the results depend on the processing

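With 3 RWAT libraries 11 genes were called, 6 higher and 5 lower in BAT. Library sizes alone gave 3 higher and 7 lower genes and moved the median of all genes from −0.0728 to −0.510 on the log2 scale. The count was 333 by DESeq2, 1 by limma-voom, 4 by limma-voom with sample quality weights and 0 with only BAT and RWAT libraries in the fit, and ran from 0 to 45 with 1 library left out. Without RWAT replicate 3 the 45 calls became 383 by DESeq2, 4 by limma-voom, 3 with sample quality weights, 26 with mitochondrial and muscle genes left out before scaling, 85 without a low-count filter and 0 with only BAT and RWAT libraries, and ran from 0 to 133 with 1 more library left out, where a lone RWAT library is assumed to vary like the other depots. For RWAT against EWAT and IWAT, DESeq2 gave 152 calls, 19 of them muscle markers, and limma-voom with sample quality weights 2, against 0. The cause of these changes was not tested. RLE scaling and a minimum of 1 CPM kept the count at 11.

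With the replicate block the count was 1 with 3 RWAT libraries and 118 without replicate 3. Same-numbered BAT and RWAT libraries had correlations of 0.434, −0.411 and 0.167 in their deviations from the depot means, so the numbers were not taken to pair the libraries.

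Of the 11 called genes, Rps16-ps2 kept its call in 3 of 6 fits with 1 library left out, the largest number, and Mup1 and AI606473 in 0; the direction was the same in all of them. Hoxa7, compared only with and without RWAT replicate 3, changed sign as given above. Among the other genes whose fold change from the fit of 3 RWAT libraries was followed through the alternatives, 2 changed sign. Hoxd8 had a log2 fold change of 0.02 by DESeq2 (0.0186), with RLE scaling (0.0217) and with mitochondrial and muscle genes left out (0.0176), and −0.0514 to 0.0559 with 1 library left out. Lep had 0.98 by limma-voom, 2.27 with sample quality weights and 0.82 with the replicate block, and −0.76 to 2.36 with 1 library left out. In the fit without RWAT replicate 3, Tcf21 ran from −5.81 to 0 with 1 more library left out, and was 0 without RWAT replicate 2, where no library of the pair of depots held a count. With 3 libraries a depot and this spread, a difference that misses the threshold is not shown to be absent.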
